A study of Caenorhabditis elegans with 2 samples.

Results

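The srh and sri genes form 2 related chemoreceptor families of Caenorhabditis elegans. All protein-coding genes of assembly WBcel235 (ce11) named srh- or sri- plus a number were taken, which gave 281 genes, 220 srh and 61 sri, of 19973 nuclear protein-coding genes. The names srh-57 and srh-228 are each given to 2 genes, so the 281 genes carry 279 names. A gene was called bound when a MADF-8 summit fell in its promoter window, which runs from 500 bp before to 100 bp after the start of any of its coding transcripts.

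The sites come from chromatin immunoprecipitation with sequencing of whole worms in which the madf-8 gene on chromosome III was fused by CRISPR insertion to TY1, EGFP and 3xFLAG tags (strain RW12322), recovered with an antibody against GFP. Both samples are biological replicates of this 1 group, young adults of 64 hours grown from starved first-stage larvae, and no second condition was compared. The authors' set from both replicates held 1972 sites, and those of replicate 1 and replicate 2 alone held 1347 and 1608. No reads were at hand, and library depth is unknown. In chromatin of whole animals, a site held in few cells and a weaker site held in many cannot be told apart, and chemosensory neurons make up a small part of the worm.

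Chemoreceptors of nematodes are proteins of the G protein-coupled receptor class that sit in the sensory cilia of chemosensory neurons and detect odours, tastes and pheromones. The srh and sri families belong to the Str superfamily with srd, srj, srm, srn and str. Their genes have multiplied by duplication, lie in clusters, many of them on the outer parts of chromosome V, and are in many cases active in only a few neurons. Of the 220 srh genes 180 lie on chromosome V, while of the 61 sri genes 31 lie on chromosome II and 21 on V. MADF-8 belongs to the MADF family of putative DNA-binding proteins.

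Only srh-16, srh-269 and sri-5 were bound. They are 3 of the 281 genes, a share of 1.07% with an exact (Clopper-Pearson) 95% interval of 0.221% to 3.09%, against 6.97% of all protein-coding genes. By family, 2 of the 220 srh genes (0.909%) and 1 of the 61 sri genes (1.64%) were bound, and the interval of sri, from 0.0415% to 8.80%, includes the share of all protein-coding genes. Intervals cover counting error over genes, and genes of a cluster are copies of each other and not independent. No test of the families against other genes was made.

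The site at srh-269 is printed to show where its summit falls among the neighbouring starts. It is written 5′ to 3′ on the plus strand of chromosome V from the RefSeq sequence of WBcel235. The stretch, chrV:16592126-16592401, is the whole site of 276 bases, and its capitals mark the 72 bases of a tRNA gene.
srh-269: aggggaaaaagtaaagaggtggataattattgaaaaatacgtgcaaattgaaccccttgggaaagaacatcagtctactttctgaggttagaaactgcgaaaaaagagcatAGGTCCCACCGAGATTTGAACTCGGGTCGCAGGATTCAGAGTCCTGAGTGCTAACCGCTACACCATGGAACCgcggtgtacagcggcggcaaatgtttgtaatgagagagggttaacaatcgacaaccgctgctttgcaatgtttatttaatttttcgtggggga

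At srh-16 (V, 12291861 to 12294196, plus strand) the summit lay 78 bp upstream of the receptor gene, and no annotated start was closer than that of srh-16. At sri-5 (I, 11182795 to 11186206, plus strand) the summit lay 264 bp upstream of the receptor gene and 468 bp upstream of rsr-1, a gene on the minus strand for an SR-related protein of splicing, which the same site also bound. At srh-269 (V, 16590156 to 16592042, minus strand) the start of the receptor gene was 222 bp away, and the summit fell inside a gene for tRNA-Gln, T03E6.t1 (V, 16592237 to 16592308, minus strand), 44 bp from its start. The noncoding gene T03E6.13 on the plus strand also spans that summit, and its start was 47 bp away. The start of srh-269 was therefore the nearest coding start and not the nearest start. Of the 3 genes, srh-16 and sri-5 stayed bound when each site was given to the nearest start of any gene type, and srh-269 did not.

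**Figure D1:**
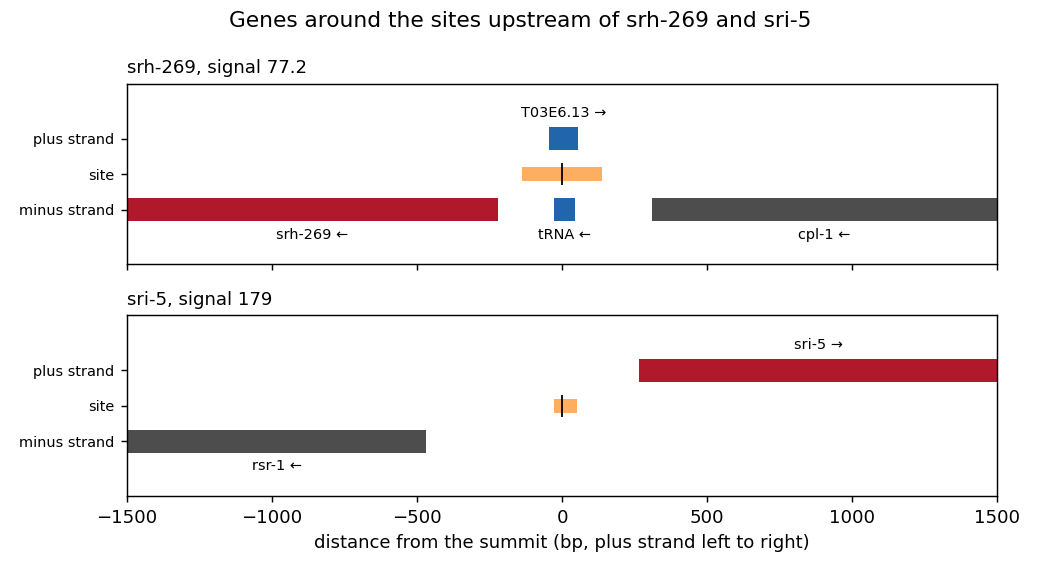
Genes around the sites upstream of srh-269 and sri-5, drawn to scale by distance from the summit in bp, with the plus strand above the site and the minus strand below it. Receptor genes are red, other coding genes grey, noncoding genes blue, and the orange bar is the site with its summit as a black tick; the summit at sri-5 lies between diverging coding genes, and that at srh-269 lies within the tRNA gene.

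The count was low in every form of the site lists tried. It was 2 of 281 in the conservative set (sri-5 and srh-269), against 6.92% of all protein-coding genes, 1 in the set of replicate 1 (sri-5), against 5.24%, and 2 in that of replicate 2 (srh-16 and sri-5), against 6.04%. Among sites stronger than the median signal it was 1 (sri-5), against 4.13%. It stayed at 3 by any overlap of site and window, against 7.64%, by gene start in place of transcript starts, against 6.51%, and with each site given to the nearest coding start, against 5.48%. With each site given to the nearest start of any gene type it was 2, against 4.98%.

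The 3 sites differed in strength and in how far the replicates shared them. The score is the authors' scaled IDR score, with a top value of 1000 and a lowest kept value of 830, where the irreproducible discovery rate (IDR) was 0.01. The signal is the authors' value per site, in units that no source used here states. At sri-5 the site (I, 11182502 to 11182582) had a signal of 179 in the set of both replicates and ranked 580 of 1972. Its candidates had signals of 55.9 in replicate 1 and 122 in replicate 2, with a score of 1000 in each, so it was the only receptor site kept in both replicates alone. At srh-16 the site (V, 12291645 to 12291920) had a signal of 98.8 and ranked 1254. Its candidate scored 29 in replicate 1 (signal 28.2) and 1000 in replicate 2 (signal 71.4), so that site rested on replicate 2. At srh-269 the site (V, 16592126 to 16592401) had a signal of 77.2 and ranked 1644. Its candidates scored 648 in replicate 1 (signal 35.3) and 544 in replicate 2 (signal 35.2), below 830 in each, and it was kept only in the sets made from both replicates together. Of all sites, 29.4% were stronger than that at sri-5, 63.5% than that at srh-16 and 83.3% than that at srh-269. The conservative set held the sites at sri-5 and srh-269 and lacked that at srh-16, where the ranked list behind it gave a score of 646.

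Within the gene bodies, sri-5 alone held a summit, against 2.59% of all protein-coding genes. That site (I, 11185335 to 11185610) lay in an intron of sri-5, 2678 bp from the gene start, with a signal of 88.9 in the set of both replicates. Its candidates had scores of 705 in replicate 1 and 712 in replicate 2 (signals 41.7 and 41.1), so neither replicate alone kept it. Thus sri-5 was the only gene of the families with a site both upstream and inside.

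The remaining 278 genes had no summit in their window. The median distance from a start to the nearest summit was 44.2 kb for the 281 genes (quartiles 16345 and 93918 bp) and 21.3 kb for all protein-coding genes (quartiles 6430 and 57755 bp). On chromosome V, which holds 201 of the 281 genes, the medians were 53.5 kb for the receptor genes and 28.5 kb for all protein-coding genes. On chromosome II, with 58 of them, they were 24.0 kb and 14.4 kb. A summit lay within 5 kb of 17 of the 281 genes (6.05%), against 21.5% of all protein-coding genes, and farther than 100 kb from 66 (23.5%), against 14.6%. For the srh genes the median was 44.6 kb and for the sri genes 42.5 kb, and the greatest distance, 444382 bp, was that of an srh gene.

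**Figure D2:**
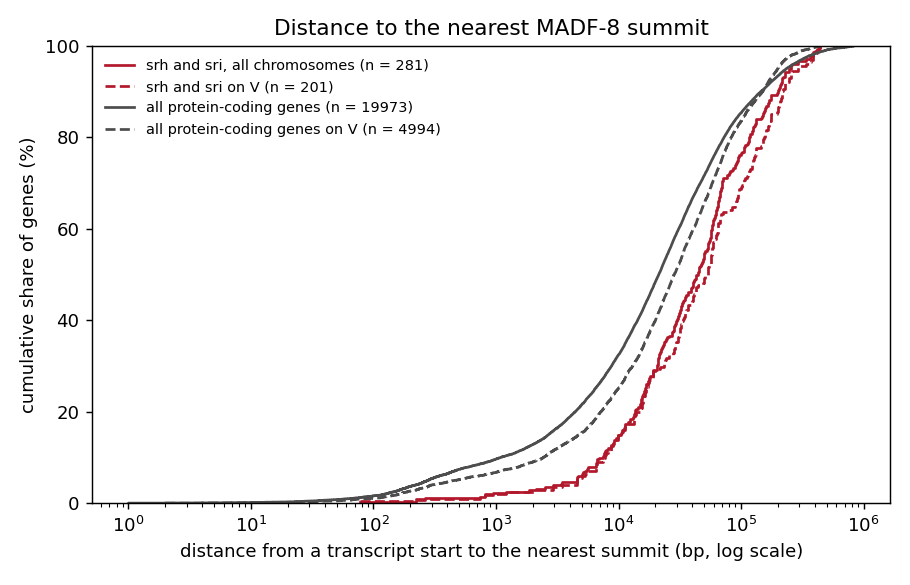
Cumulative share of genes (%) by distance from a transcript start to the nearest summit (bp, log scale), for srh and sri genes (red) and all protein-coding genes (grey), over all chromosomes (solid) and on chromosome V (dashed). Both red lines run to the right of the grey ones up to about the upper end, with medians of 44.2 kb for the 281 receptor genes and 21.3 kb for all protein-coding genes.

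The closest unbound genes had sites that sat nearer to other starts. The summit nearest to srh-8 lay 735 bp upstream of it and 475 bp from the start of a pseudogene, with a signal of 487 that ranked 139 of all sites. The summit 814 bp upstream of srh-89 lay 274 bp from F25E5.1, and the one 948 bp upstream of srh-70 lay 174 bp from the homeobox gene ceh-99. The summit 1211 bp upstream of srh-24 lay 190 bp from R10D12.13 and 250 bp from algn-13, a gene of protein glycosylation. The genes F25E5.1, ceh-99, R10D12.13 and algn-13 were bound by these sites. The fifth closest, srh-63, had a summit 1859 bp downstream of its start and past its end, in a stretch with many piRNA genes, of which the nearest started 354 bp away. Of these 5 genes, srh-8, srh-89 and srh-70 were counted as bound with the window widened to 1000 bp upstream and 200 bp downstream, which gave 6 of 281 (2.14%), against 8.82% of all protein-coding genes. With the window narrowed to 200 bp upstream, srh-16 alone was bound, against 3.56% of all protein-coding genes.

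On chromosomes V and II, which hold most of the genes, the share bound was below that of all protein-coding genes there. On chromosome V, 2 of 201 receptor genes were bound (0.995%, exact interval 0.121% to 3.55%), against 4.85% of all protein-coding genes there. On chromosome II none of 58 was (upper exact limit 6.16%), against 8.70%, and on chromosome I it was 1 of 11 (9.09%), near the 10.7% of all protein-coding genes there. Chromosomes IV, X and III held 8, 2 and 1 of the genes and none was bound, against 6.64%, 0.769% and 11.5% of all protein-coding genes there. These counts are too small to differ from those shares. Had each receptor gene been bound at the share of all protein-coding genes of its own chromosome, 16.6 would have been bound, and 15.9 with each chromosome cut into 3 parts of equal length and the middle part taken apart from the outer ones. On chromosome V, 173 of the 201 lay in the outer parts, of which srh-269 alone was bound (0.578%), against 4.54% of all protein-coding genes there. The middle part held 28, of which srh-16 alone was bound (3.57%), against 5.39%.

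All 3 bound genes had a coding gene of another kind as the nearest one upstream, and 3 genes are too few to make this a trait. Of the 281 genes, 140 had another chemoreceptor gene as the nearest coding gene upstream and none of these was bound, against 1.53% of all protein-coding genes with such a neighbour. At that share, 140 genes may well include no bound one. The other 141 included all 3 bound genes (2.13%), against 7.35% of all protein-coding genes with an upstream neighbour of another kind. The arrangement of neighbouring starts was classified for 280 of the receptor genes, all but srh-16. Of the 280, 21 stood head to head, within 1000 bp, with a gene that is no chemoreceptor. Of these 21, sri-5 alone was bound (4.76%), against 19.4% of all protein-coding genes in that arrangement. The partner of sri-5 was bound by the same site, and in the other 20 cases neither gene was. Unbound pairs are common: of all 3502 protein-coding genes head to head within 1000 bp, 660 were bound and 658 had a bound neighbour. The 20 unbound pairs of receptor genes include srh-2 with icl-1, an enzyme gene of the glyoxylate cycle, at a gap of 296 bp, and srh-18 with the cuticle collagen gene col-161 at 440 bp. These classes of neighbours were drawn up after the bound genes were known.

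The genes were also grouped by the stretches between neighbouring summits. Such stretches hold no site by definition, and 1771 of them hold a protein-coding gene. The 281 genes fell into 91 of these, and 4 stretches with 10 or more held 86 of them. All protein-coding genes were not grouped in this way, so the 86 have no share to stand beside. The fullest, V from 16965873 to 17859266, was 893 kb long and held 44 of the genes, 40 srh and 4 sri, among 198 protein-coding genes of which 81 were chemoreceptors. The next held 16 srh genes (V, 2694599 to 3163338, 469 kb), 14 of both families, 12 of them sri (II, 3077101 to 3248240, 171 kb), and 12 (V, 297776 to 773422, 476 kb). They held 133, 62 and 138 protein-coding genes in that order. For scale, chromosome V had a site every 58.8 kb on average and chromosome II every 37.7 kb. Longer stretches tend to hold more genes, so these averages are not the stretch length around a typical gene. The ranked list behind the main set had 27.4 candidates per 100 kb in the 893 kb stretch, against 31.2 over chromosome V. The 469 kb and 476 kb stretches of V had 24.1 and 36.6. The stretch on chromosome II had 36.8, against 34.8 over that chromosome, so the 4 stretches lay on both sides of their chromosomes. Of the 44 genes in the 893 kb stretch, 4 had a candidate of that list in their window, the highest at srh-290 with a score of 103. Over all 281 genes it was 32 (11.4%), against 26.8% of all protein-coding genes.

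**Figure D3:**
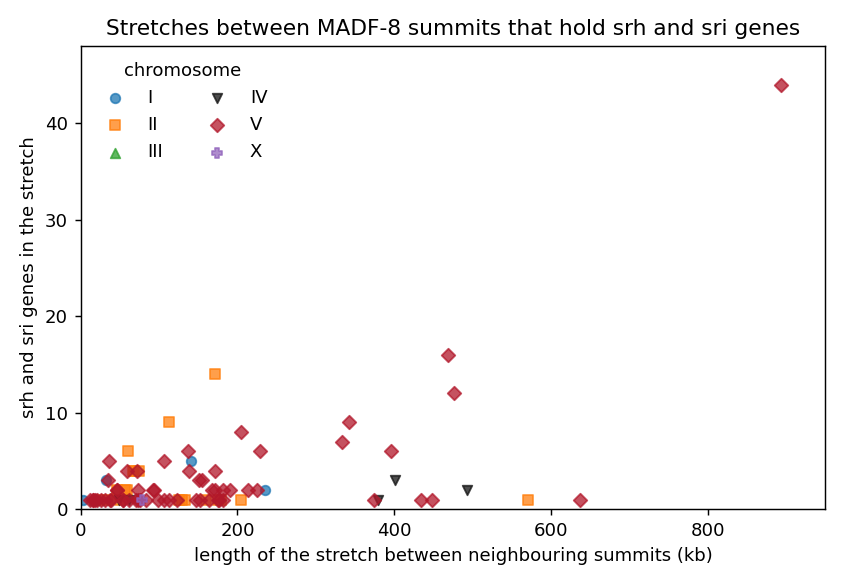
Number of srh and sri genes in each stretch between neighbouring summits (vertical axis) against the length of the stretch (kb, horizontal axis), 1 point per stretch, by chromosome. The point at 893 kb with 44 genes is on chromosome V, and 4 stretches hold 10 or more.

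Fewer windows of the families were wholly unique in sequence, and reads from near-identical copies may not be placed. The window of 162 of the 281 genes (57.7%) was made only of 31-base words that occur a single time in the genome, against 75.2% of all protein-coding genes. The median share of such words was 1 in both, and the lower quartile was 0.956 for the receptor genes and 1 for all protein-coding genes. The share was under 0.5 in 12 windows (4.27%), against 3.29%. On chromosome V, 57.7% of the receptor windows were wholly unique, against 71.8%, and 1.99% had a share under 0.5, against 4.12%. In 6 of the 12 windows no word was unique, at both genes named srh-57, both named srh-228, and sri-13 and sri-14. How the authors' alignment treated such reads is not known, so no reading is drawn from the absence of a site there. In the 893 kb stretch 9 of the 44 windows were wholly unique, with a median share of 0.961. The windows of srh-16 and sri-5 were wholly unique and that of srh-269 was 0.919 unique. The part of repeated sequence in the low count was not tested. The median GC content of the windows was 33.9% for the receptor genes and 34.6% for all protein-coding genes.

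Weaker candidates were also fewer at these genes. Behind the main set stands a ranked list in which 32 of the 281 windows held a candidate of any score (11.4%), against 26.8% of all protein-coding genes. In replicate 1 there were 57 (20.3%), against 31.9%, and in replicate 2 there were 38 (13.5%), against 28.4%. Only 15 had a candidate in both replicates (5.34%), against 17.9%, and 197 (70.1%) had none in these 3 lists, against 55.6%. At a score of at least 540, where the IDR was 0.05, the list behind the main set held srh-170 besides the 3 bound genes, 4 of 281 (1.42%), against 7.82%.

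The highest-scoring unbound gene was srh-170 (V, 15386746 to 15388870, minus strand). Its candidate in the list behind the main set scored 626 with a signal of 53.4 and a summit 428 bp upstream, and the candidates of the replicates scored 219 in replicate 1 and 761 in replicate 2 (signals 26.4 and 40.1). The replicates thus differ at srh-170 in the same direction as at srh-16. The next 4 by score in that list were srh-56 (280), srh-70 (239), srh-211 (220) and srh-17 (147). Of these, srh-17 had no candidate in replicate 2, and the scores in replicate 1 ran from 14 at srh-211 to 208 at srh-17. The candidate in the window of srh-70 was another one than the site near ceh-99, and the start of a snoRNA gene, T21B4.20, lay 85 bp from it. Outside the rule for named genes, srh-290 had a score of 633 in replicate 2 and no candidate in replicate 1, and sri-4 had the highest score of an unbound gene in replicate 1, at 358, and no candidate in replicate 2. Both were picked after their values were seen.

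**Figure D4:**
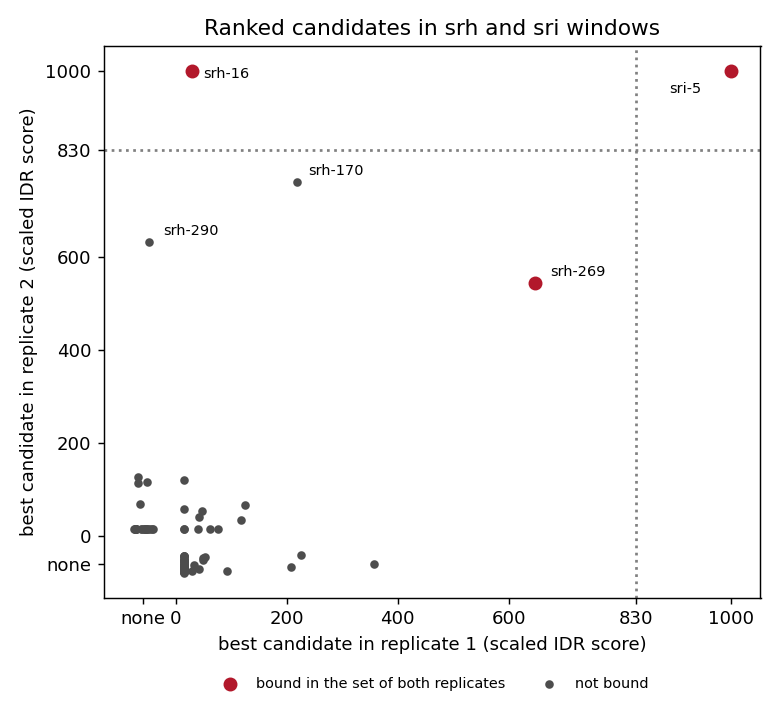
Scaled IDR score of the best candidate in the window of each srh and sri gene in replicate 1 (horizontal) and replicate 2 (vertical), with genes that lack a candidate in a replicate placed at "none" with a small random offset. Red points are the 3 bound genes and dotted lines mark 830, the lowest kept score; sri-5 is past both lines, srh-16 past that of replicate 2, and srh-269 past neither.

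Some members are known from single chemosensory neuron types, and none of these was bound, against 6.97% of all protein-coding genes. At that share, so few genes may well include no bound one. The gene srh-142 is a marker of the ADF neurons, srh-220 and sri-51 of the ADL neurons, srh-234 is an ADL gene that responds to feeding state, and sri-14 encodes a receptor of the ASH neurons that acts in avoidance of concentrated diacetyl. Their nearest summits lay 59257, 71683, 49142, 29581 and 70215 bp away in that order of naming. A candidate was present at srh-220 in replicate 2 (score 127) and in the list behind the main set (23), and at srh-142 and sri-51 in replicate 1 (14 each), while srh-234 and sri-14 had none. The window of sri-14 holds no unique word, as given above. Of 8 other genes of chemosensory neurons, odr-10, tax-4, osm-9, odr-3, gpa-3, che-1, ceh-36 and ttx-1, which encode receptors, channels, G proteins and transcription factors, none was bound either, with the nearest summit from 6950 bp (che-1) to 334147 bp (odr-10) away. This count is also too small to differ from the share of all protein-coding genes. Among the 8, odr-3 alone had candidates, with scores of 14 in replicate 1, 48 in replicate 2 and 98 in the list behind the main set.

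The other chemoreceptor families were seldom bound as well. Of their 1028 genes in 20 families, srw-90 and srz-97 were bound (0.195%, exact interval 0.0236% to 0.701%). In the rest of the Str superfamily none of 306 was, with an upper exact limit of 1.20%. The interval of the srh and sri genes, given above, overlaps that of the other families, and the difference was not tested. RefSeq also lists 89 srh and sri pseudogenes on the same assembly, none of them bound by gene start (upper exact limit 4.06%), against 44 of 1921 pseudogenes (2.29%).

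**Figure D5:**
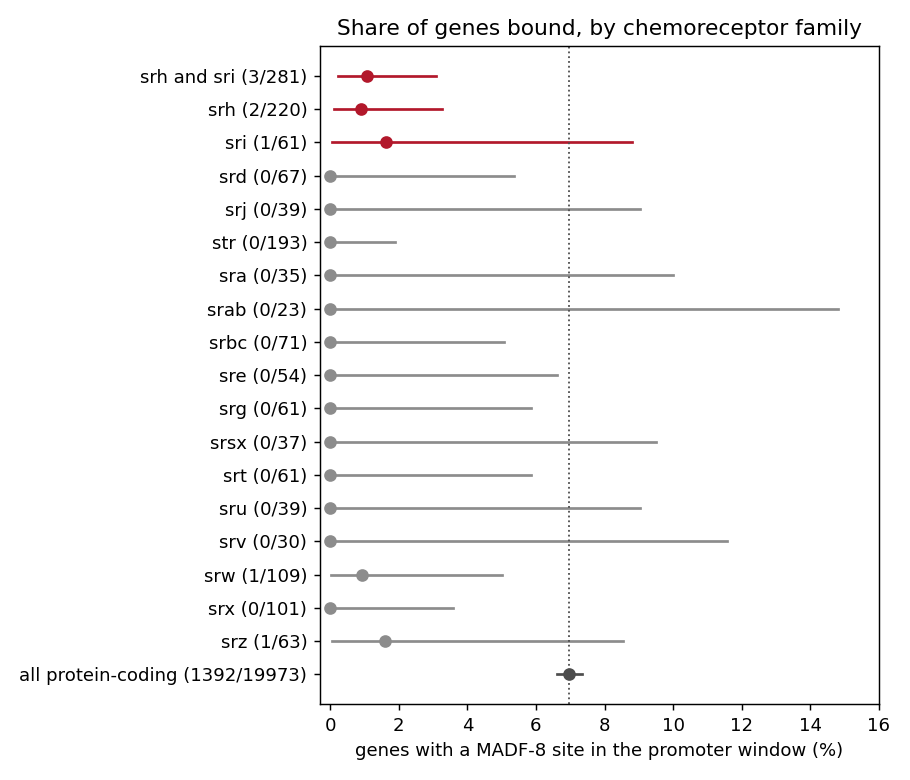
Share of genes with a site in the promoter window (%), with exact 95% intervals as bars, for srh and sri together, each family with at least 20 genes, and all protein-coding genes; bound and total genes stand beside each name. The point for srh and sri is at 1.07%, left of the dotted line at the share of all protein-coding genes (6.97%), and most of the other families are at 0.

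Words of 8 bases that are frequent at MADF-8 promoter sites were present in few of the windows. AAGGCGCA, AAAGGCGC and GCGAGACC were searched on both strands, and the first pair overlap by 7 bases. At least 1 of them was in the window of 7 of the 281 genes (2.49%), against 5.89% of all protein-coding genes and 28.0% of the bound ones. None of the 3 sites at srh-16, srh-269 and sri-5 held one, and neither did the promoter windows of these genes. Most bound genes lack the words in their windows, so 3 genes are too few to differ from the 28.0%. Of the 7 receptor genes with a word in the window none was bound, against 33.1% of all protein-coding genes with one. The words were picked on these data for their frequency at bound sites, so these shares are no independent support. The stretches below show the words where no site was called, read on the strand that carries the word, with the word in capitals between 11 bases on each side. They are srh-10 at chrV:6067371-6067400 (plus), srh-218 at chrV:15493936-15493965 (minus), srh-282 at chrIV:273743-273772 (plus), sri-53 at chrII:3202837-3202866 (plus), sri-7 at chrV:15399994-15400023 (minus) and sri-71 at chrII:2627540-2627569 (plus).
srh-10: tactgataaggAAGGCGCAttttgaaatac
srh-218: aatatcagcaaAAGGCGCActgatgaaatg
srh-282: tgtagtttgtcAAGGCGCAagactactaat
sri-53: cagagagagagAAGGCGCAgacaactatgg
sri-7: tatttttcgttGCGAGACCcattttctgaa
sri-71: tgcctgccgacAAAGGCGCccacctaccac

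The word lay 29 bp upstream of the start of srh-218 and 358 bp upstream of that of srh-282, the nearest and farthest of the 6 shown. The seventh gene, srh-219, held AAAGGCGC 38 bp inside its own start, within overlapping coding genes. The nearest summit was 2921 bp from the start of sri-7, 4552 bp from that of srh-10 and 106366 bp from that of srh-282. A word match is a description of the sequence and does not show a binding site.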

How the data were processed

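The authors deposited 4 thresholded and 4 ranked lists of sites, 1 of each kind for replicate 1, for replicate 2, for both together and as a conservative form, on assembly ce11, per the file headers and the descriptions deposited with them. They were made from the replicates' alignments with 1 control file, not analysed here; the aligner and peak caller were not stated there. Each deposited list gives a scaled IDR score, a signal and a summit offset per site, and the ranked lists give the −log10 of the global IDR, as deposited by the authors. The ranked list that holds every site of the main set was taken as the one behind it. The lists of both replicates also hold 16 columns of unnamed replicates, not used.

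Genes came from Ensembl release 115, and 0 sites lay beyond a chromosome end of the RefSeq WBcel235 sequence. Sites were assigned to genes and counted with exact (Clopper-Pearson) 95% intervals, and no set test was made. All 279 names matched RefSeq symbols. The assignment was tested on simulated data, with sites planted at 200 genes. The members, gene lists and words were chosen with earlier results of these data known. Named genes are those bound in any thresholded list, their neighbours, the 5 closest and the 5 highest-scoring unbound members, members known from neurons, and those with a summit in the body. Neighbours at srh-16 are not reported here, and srh-16 was left out of the counts of head-to-head genes, also among all protein-coding genes. Software versions were matplotlib 3.10.9, pandas 2.3.3, scipy 1.17.1, numpy 2.4.6 and Python 3.11.15.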

Additional observations from a re-analysis of the deposited data

How the results depend on the processing

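No paired analysis was possible because the data hold 1 group. Of 22 alternative values 11 moved by more than 1.5 times or by more than the spread between the replicates' values. The count of bound genes, 3 in the main set, ran from 1 without replicate 2 (sri-5) to 2 without replicate 1 (srh-16 and sri-5). It was 1 among the sites stronger than the median signal (sri-5), 1 with the window narrowed to 200 bp upstream (srh-16), 6 with the window widened to 1000 bp upstream and 200 bp downstream, and 32 over every ranked candidate. The share was below that of all protein-coding genes in each of these settings, with 0.356% against 5.24% without replicate 2 and 11.4% against 26.8% over every candidate. The median distance to a summit ran from 42.9 kb without replicate 1 to 53.5 kb without replicate 2, and was 71.0 kb to the stronger sites, which are fewer. The site inside sri-5 was lost without replicate 1, without replicate 2 and among the stronger sites, leaving 0 genes. The words were in 3 windows (1.07%) with the narrower window, against 2.46% of all protein-coding genes. The alternatives chosen after seeing the data were the return of 92 candidates absent from the main set, which left 3 genes, and the nearest start of any gene type, which left 2. Unknown depth and repeated windows limit what the absence of a site shows, and counts this small move with single sites.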
